A study of Mus musculus with 18 samples.

Results

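Collagen genes were taken as all genes whose symbol is Col, a number, a and a number, which selected 44 of the 41388 genes listed in each library. The 44 chains were described in 4 classes. Fibrillar collagens had 11 members, basement membrane collagens 6, FACIT collagens (fibril-associated collagens with interrupted triple helices) 9, and the remaining 18 were beaded filament (6), network (3), anchoring fibril (1), transmembrane (4) and multiplexin (2) chains together with Col26a1 and Col28a1, which have no settled class.

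A collagen molecule is a triple helix of chains that are either identical or drawn from a small set of partners, so that several genes often feed a single protein. In skeletal muscle the fibrillar collagens I, III and V form the connective tissue sheaths around fibres and fascicles, collagen IV forms the network of the basement membrane around every fibre and capillary, and collagen VI links that membrane to the matrix outside it. Most fibrillar collagen of muscle is made by fibroblasts, while several minor collagens mark special sites, such as the junction of fibre and tendon or of fibre and nerve. Site-1 Protease (S1P, gene Mbtps1), the enzyme the study removed, is a Golgi protease that releases transcription factors such as ATF6 and the SREBPs from their membrane anchors.

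RNA was sequenced from 2 calf muscles of 12-week-old mice on standard chow that had been fasted for 4 h: the soleus, rich in slow fibres, and the gastrocnemius, mainly of fast fibres. Both groups of mice carried floxed Site-1 Protease alleles. The knockout mice also carried HSACre, a Cre recombinase driven in muscle fibres by the promoter of human skeletal actin, so the alleles of fibroblasts, endothelium and other cells of the muscle are not its target. The 18 libraries were 4 soleus knockout (replicates 35, 39, 40 and 42), 5 soleus control (34, 36, 37, 38 and 41), 4 gastrocnemius knockout (2, 6, 7 and 9) and 5 gastrocnemius control (1, 3, 4, 5 and 8). The titles were followed for these numbers, although the series text states 4 per group. No mouse with Cre alone was among them, so loss of S1P and presence of Cre cannot be told apart. No label says that each library came from its own mouse, so p-values describe the scatter among these libraries, which may in part be technical.

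Libraries held 39.0 to 78.2 M counts. Libraries labelled knockout had no lower level of Mbtps1 than controls. It averaged 34.5 ± 2.51 CPM in soleus libraries labelled knockout and 32.3 ± 1.5 CPM in soleus controls, and 37.6 ± 3.58 CPM in gastrocnemius libraries labelled knockout and 31.5 ± 2.4 CPM in gastrocnemius controls (SD, n = 4 and 5). A count over the whole gene does not separate the deleted exons from the rest, so this neither bears out nor contradicts the labels, and "labelled knockout" is used throughout. Marker genes matched the labelled muscles in every library: the slow myosin gene Myh7 lay between 5800 and 11500 CPM in soleus libraries and between 107 and 530 CPM in gastrocnemius libraries. A library that stands apart in one collagen is soleus control replicate 38, with 8.42 CPM of Col19a1 where the other 8 soleus libraries had 0.389 to 0.845 CPM. The gap above the next soleus library, 2.73 on the log2(CPM + 0.5) scale, was the widest of all 41388 genes for that library, and the next gene's was 1.32. In that library Myh4 (2020 CPM) and Myh2 (16200 CPM) lay within the range of the other soleus libraries, Myh7 (11500 CPM) was the highest of them, and the sum of 6 Schwann cell markers was also the highest, at 239 CPM where the others had 67.4 to 194 CPM. Values of Col19a1 that rest on it are given with and without it.

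Promoter sequence of 4 genes is shown because the results turn on them. Col19a1 and Col9a1 were the 2 collagens called in the gastrocnemius comparison of libraries labelled knockout with controls, and they lie side by side on chromosome 1. Col25a1 was the collagen furthest above the gastrocnemius in the soleus. Col4a1 and Col4a2 share a single stretch from which they are read in opposite directions. Each is the RefSeq window (GRCm38.p6) from 250 bases before to 50 bases after the annotated start, 5′ to 3′ on the strand of the gene. Capitals mark every match, on either strand, to 6 motifs: the TATA box (TATAAA), the CCAAT box (CCAAT), the GC box (GGGCGG), the E-box (CANNTG), the ER stress response element bound by ATF6 (which contains a CCAAT box) and the sterol regulatory element bound by SREBPs (TCACNCCAC). The windows are chr8:11312555-11312854 (+) for Col4a2, chr1:24587388-24587687 (−) for Col19a1, chr1:24177360-24177659 (+) for the upstream of the 2 starts of Col9a1, and chr3:130180595-130180894 (+) for Col25a1.
Col4a2: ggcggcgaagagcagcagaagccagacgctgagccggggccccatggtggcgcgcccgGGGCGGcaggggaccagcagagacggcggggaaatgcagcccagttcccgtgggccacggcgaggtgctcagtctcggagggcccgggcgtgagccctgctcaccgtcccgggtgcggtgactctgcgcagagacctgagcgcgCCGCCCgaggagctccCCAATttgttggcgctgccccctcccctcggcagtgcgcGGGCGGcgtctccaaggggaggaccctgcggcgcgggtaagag
Col19a1: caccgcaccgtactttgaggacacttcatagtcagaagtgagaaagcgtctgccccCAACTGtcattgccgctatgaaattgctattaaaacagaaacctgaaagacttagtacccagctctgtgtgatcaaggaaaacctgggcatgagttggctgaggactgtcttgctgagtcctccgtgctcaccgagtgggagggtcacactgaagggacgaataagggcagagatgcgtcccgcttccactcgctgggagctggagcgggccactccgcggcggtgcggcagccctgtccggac
Col9a1: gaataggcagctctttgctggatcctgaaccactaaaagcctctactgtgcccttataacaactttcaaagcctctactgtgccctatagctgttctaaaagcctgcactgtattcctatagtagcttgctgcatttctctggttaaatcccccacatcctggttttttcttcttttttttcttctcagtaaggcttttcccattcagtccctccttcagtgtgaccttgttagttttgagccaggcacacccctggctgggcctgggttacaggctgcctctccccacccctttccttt
Col25a1: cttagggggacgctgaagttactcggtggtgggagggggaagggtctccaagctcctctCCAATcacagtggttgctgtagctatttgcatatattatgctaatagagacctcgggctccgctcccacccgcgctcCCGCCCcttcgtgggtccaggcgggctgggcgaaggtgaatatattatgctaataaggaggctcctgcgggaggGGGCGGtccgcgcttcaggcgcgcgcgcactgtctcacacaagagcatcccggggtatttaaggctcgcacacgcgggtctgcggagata

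The start of Col4a1, on the minus strand, is base 11312826 of chromosome 8, 21 bases from the start of Col4a2 at base 11312805 and inside the window printed for Col4a2. That window held 3 GC boxes and 1 CCAAT box, and that of Col25a1 held 2 GC boxes and 1 CCAAT box. Col19a1 had 1 E-box, and the printed Col9a1 window had no match to any of the 6. Windows were at hand for 35 of the 44 members, 38 in all since some genes have several starts; those without one were Col1a1, Col2a1, Col4a3, Col5a2, Col9a3, Col12a1, Col14a1, Col22a1 and Col26a1. The GC box was in 23 of the 38 member windows (60.5%) and in 35.7% of all 32851 windows. The CCAAT box was in 13 (34.2%) against 37.4% of all windows, the E-box in 20 (52.6%) against 72.3%, and the TATA box in 5 (13.2%) against 13.6%. The sterol regulatory element was in 2 member windows, those of Col11a2 and Col17a1 (5.26%), against 1.24% of all, and the ER stress response element was in 0 of them, against 0.119% of all. These are matches of letters and not measured binding.

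Per kilobase of listed gene length, levels of the 44 genes spanned more than 4 orders of magnitude. Over all 18 libraries Col1a1 was highest at 152 CPM per kb, followed by Col4a1 (81.5), Col3a1 (74.7), Col1a2 (61.5), Col4a2 (61.2) and Col6a1 (33.0). This order depends on the listed lengths. By CPM it was Col1a1 (999), Col1a2 (747), Col3a1 (733), Col4a1 (555) and Col4a2 (405). Of the FACIT chains, Col22a1, made at the junction of muscle fibre and tendon, was highest at 6.26 CPM per kb, with Col12a1, a collagen on the surface of collagen I fibrils, next at 3.12. The lowest was Col6a4 at 0.00999 CPM per kb, with 0 to 16 counts in a library. The 44 genes together took 0.301% to 0.799% of a library's counts. Fibrillar chains made up 51.3% to 69.4% of the collagen counts, basement membrane chains 16.5% to 28.9%, and FACIT chains 1.83% to 5.87%.

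**Figure D1:**
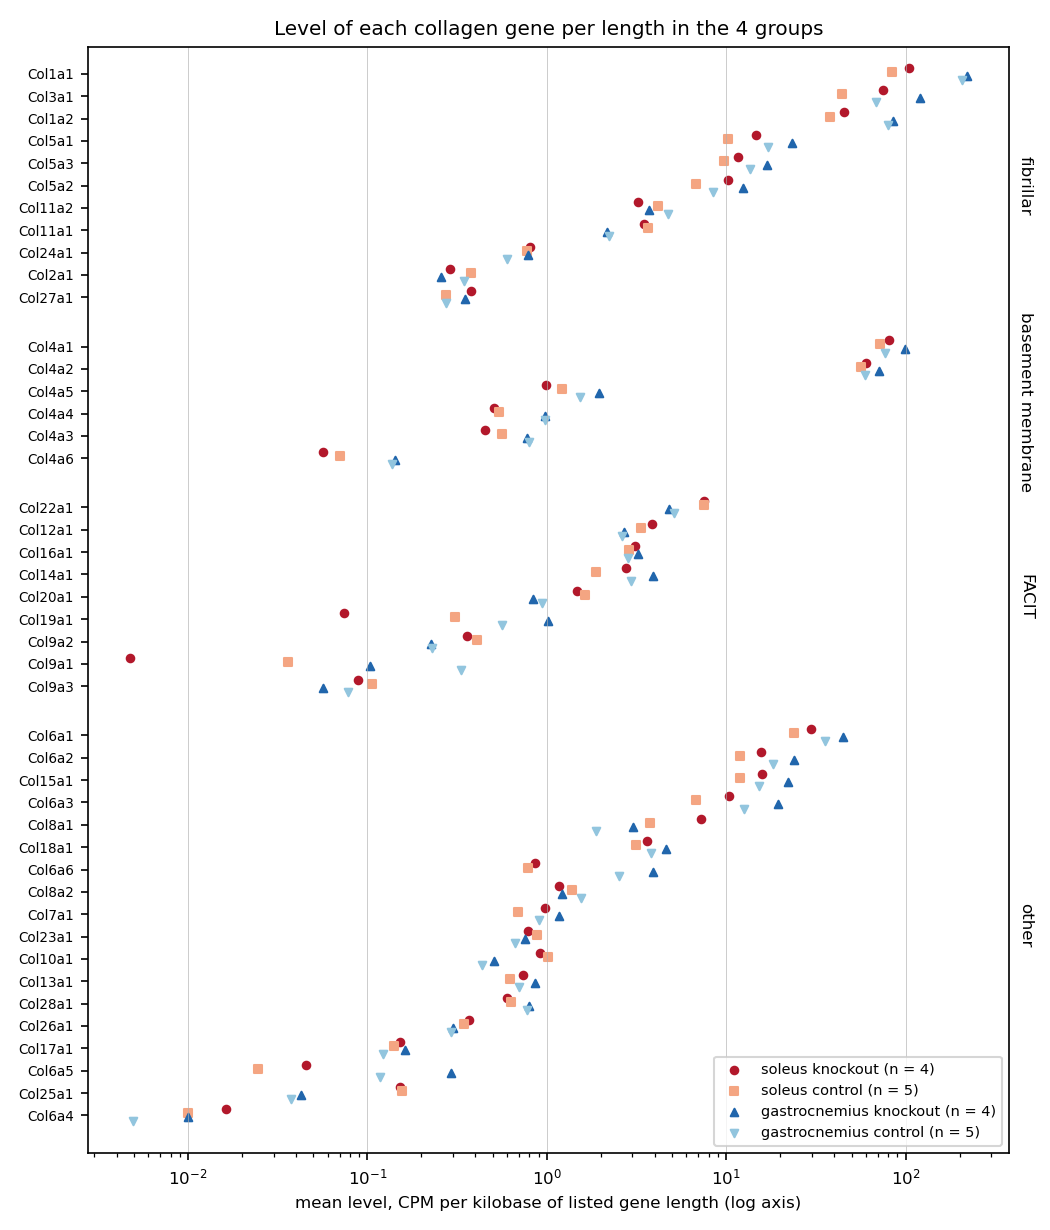
Mean level of each collagen gene in CPM per kilobase of listed gene length (log axis) in soleus libraries labelled knockout (circles), soleus controls (squares), gastrocnemius libraries labelled knockout (triangles) and gastrocnemius controls (inverted triangles), by class. Col1a1, Col3a1, Col1a2, Col4a1 and Col4a2 stand above the others, and Col6a4 is lowest.

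The gastrocnemius comparison asked what changed in the collagens of a fast muscle labelled knockout for S1P. Of 43 collagen genes that passed the filter on low counts (Col6a4 did not), Col19a1 rose and Col9a1 fell at an adjusted p under 0.05 (edgeR quasi-likelihood test, Benjamini-Hochberg over all genes). Among all 16393 genes tested, 3.78% were called, 1.77% higher and 2.01% lower. Positive log2 fold changes were found for 33 of the 43 collagens, beside 53.5% of all genes, and their median was 0.26, beside 0.02 for all genes. At an unadjusted p under 0.05, 17 collagens were higher and 1 was lower, where 9.86% and 8.79% of all genes were. DESeq2, run as an alternative, called 9 collagens higher and 1 lower, while calling 7.53% of all genes. Leaving out knockout replicate 2 also gave 9 higher and 1 lower, with 6.55% of all genes called.

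Col19a1, a FACIT chain described in differentiating muscle of mouse embryos, spans bases 24261890 to 24587472 of chromosome 1 on the minus strand. It had 5.52, 7.44, 8.9 and 6.23 CPM in gastrocnemius libraries labelled knockout (replicates 2, 6, 7 and 9), against 3.79, 4.39, 3.81, 3.03 and 4.4 CPM in controls (1, 3, 4, 5 and 8). Each library labelled knockout was above every control. This made 1.80-fold the control level (0.85 on the log2 scale, standard error or SE 0.16), with an adjusted p of 0.0100. Without any single library it stayed between 0.72 and 0.95, with adjusted p of 0.00284 to 0.0423. In a fit of all 18 libraries, which takes in soleus control replicate 38, its adjusted p was 0.588 at the same fold change of 0.85.

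Col9a1, a chain of collagen IX, best known from cartilage, lies on the plus strand at bases 24177610 to 24252684, and 9205 bases with no listed gene wholly inside them separate it from Col19a1. It had 0.782, 0.753, 0.197 and 0.38 CPM in gastrocnemius libraries labelled knockout (34, 32, 8 and 20 counts), against 1.4, 2.68, 1.71, 1.54 and 1.08 CPM in controls (65, 100, 58, 58 and 50 counts). The groups did not overlap, and Col9a1 was the only one of the 43 below all controls, a pattern seen in 4.62% of all genes. Its log2 fold change was -1.66 (SE 0.38, adjusted p = 0.0309). The call was lost without control replicate 1, 3, 4 or 5 or without knockout replicate 6, 7 or 9 (adjusted p of 0.0534 to 0.0768), with log2 values of -1.91 to -1.40 over all 9 removals. Partner chains of collagen IX gave log2 fold changes of -0.02 (Col9a2, SE 0.39) and -0.46 (Col9a3, SE 0.52), neither called. Cartilage and bone markers were scarce in these libraries, with 1 of the 6 listed genes passing the filter, and Matn1, a cartilage matrix gene, was at 0 in all gastrocnemius libraries but 1 (0.019 CPM).

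No fibrillar chain was called in the gastrocnemius by edgeR with all libraries; DESeq2 called Col5a1 and Col5a2 higher. Of the 11, 8 had positive values, and the class median was 0.32. Col3a1, the chain of the thin collagen III fibrils around fibres, had 752, 1070, 1920 and 978 CPM in libraries labelled knockout (replicates 2, 6, 7 and 9), against 711, 762, 638, 598 and 660 CPM in controls (1, 3, 4, 5 and 8). Replicate 7 was the highest of all libraries, and replicate 2 lay within the range of the controls. The log2 fold change was 0.81 (SE 0.25, 95% interval 0.24 to 1.37, adjusted p = 0.123). Without replicate 7 it was 0.47 with an adjusted p of 0.0429, and without replicate 2 it was 0.97 with an adjusted p of 0.0338, so that the call depends on which libraries are kept. Its neighbour on chromosome 1, Col5a2, 24614 bases away with no listed gene between them, gave 0.55 (SE 0.20, adjusted p = 0.173), and its partner in collagen V, Col5a1, gave 0.44 (SE 0.16, adjusted p = 0.160).

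Collagen I, the main fibril former of tendon and muscle sheaths, differed by less than the spread between libraries. Col1a1 had 1400, 1270, 1710 and 1390 CPM in gastrocnemius libraries labelled knockout and 1990, 1700, 1090, 1080 and 847 CPM in controls, and the controls spanned a wider range than the libraries labelled knockout. The log2 fold change was 0.10 (95% interval -0.48 to 0.69, adjusted p = 0.881) for Col1a1 and 0.11 (-0.34 to 0.55, adjusted p = 0.841) for Col1a2. The summed level of 8 tendon markers was 438, 432, 422 and 403 CPM in libraries labelled knockout and 601, 421, 441, 308 and 256 CPM in controls, in the same order of replicates. Its highest and lowest control were those of Col1a1, while replicate 3, second in Col1a1, was below replicate 4. Its part in the result was not tested. In bulk RNA, fewer cells of a type and less RNA per cell cannot be told apart.

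**Figure D2:**
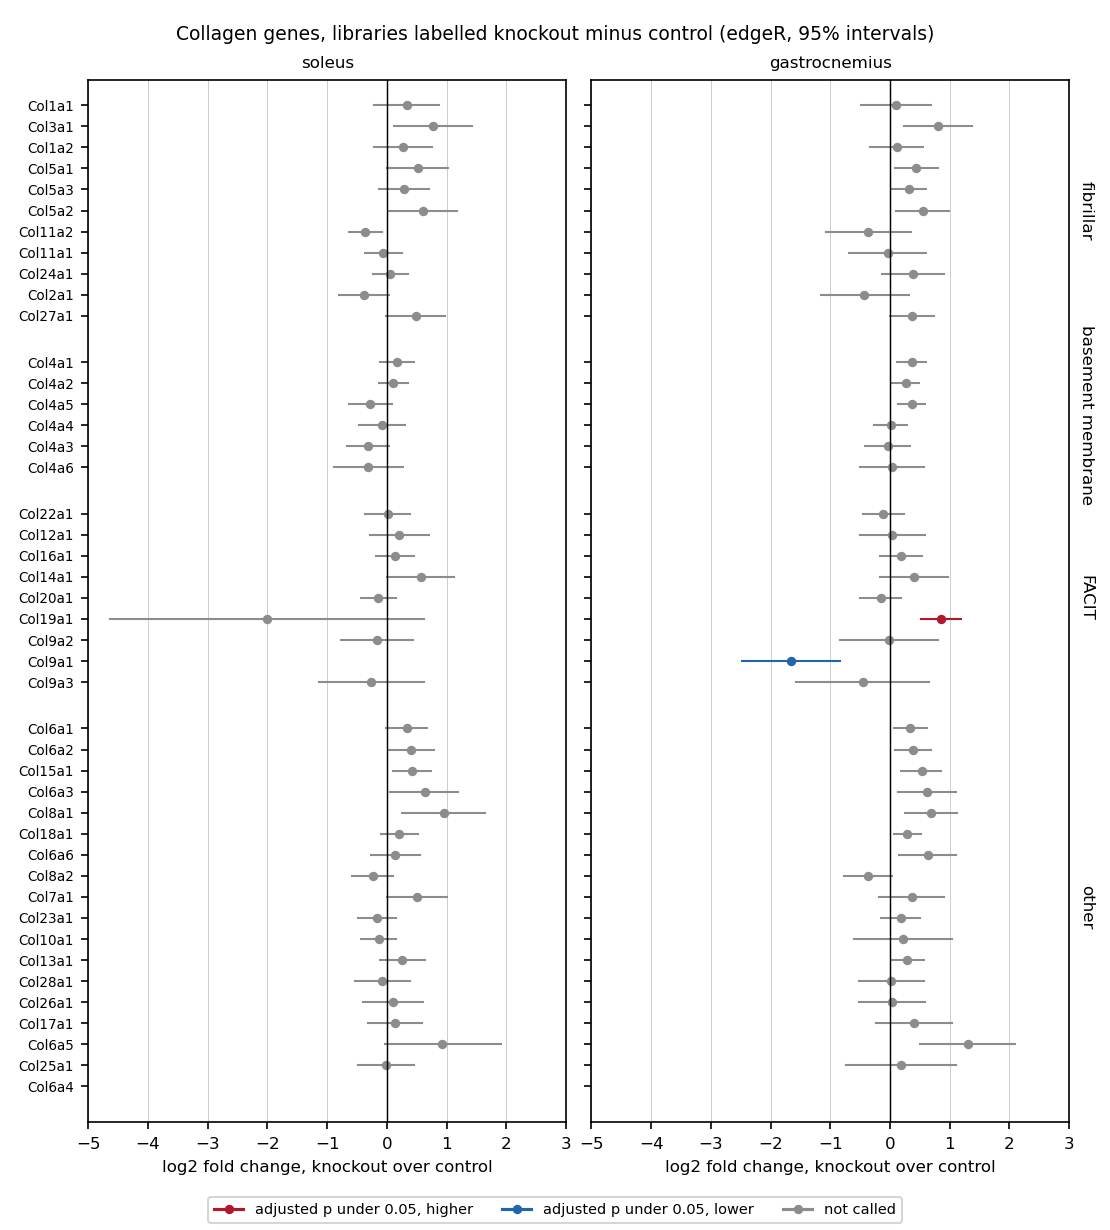
Log2 fold change of each collagen gene, libraries labelled knockout over controls, with 95% intervals, in the soleus (left) and gastrocnemius (right), by class. Col19a1 (higher) and Col9a1 (lower) are the genes called, both in the gastrocnemius; Col9a1 was not tested in the soleus and Col6a4 in neither muscle.

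Basement membrane chains were also not called in the gastrocnemius by edgeR with all libraries, while DESeq2 called Col4a1 higher (adjusted p = 0.0398). Col4a1, which with Col4a2 makes the collagen IV found in every basement membrane, had 579, 667, 818 and 654 CPM in libraries labelled knockout, against 596, 593, 517, 420 and 505 CPM in controls. All libraries labelled knockout but replicate 2 were above every control. Its log2 fold change was 0.37 (SE 0.11, adjusted p = 0.0909), and that of Col4a2 was 0.26 (SE 0.10, adjusted p = 0.175). Col4a5, a chain of the less common collagen IV networks, had 10.3, 13.7, 15.2 and 13.3 CPM against 10.2, 11.3, 9.89, 9.72 and 10.2 CPM in controls, which came to 0.36 on the log2 scale (SE 0.11, adjusted p = 0.0831). Without knockout replicate 2, Col4a1 (adjusted p = 0.0368) and Col4a5 (adjusted p = 0.0112) were called. Col4a3, Col4a4 and Col4a6 lay between -0.04 and 0.03.

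Among the other FACIT chains in the gastrocnemius, values were small and mixed in sign. Col14a1, a fibril-associated collagen of connective tissue, gave 0.41 (SE 0.25, adjusted p = 0.443) and had 45.6 CPM in replicate 7 against 18 to 23.3 CPM in the other 3 libraries labelled knockout. Col12a1 gave 0.04, with a sign that turned when single libraries were left out. Col22a1 gave -0.11, and here replicate 7 was low, at 31.0 CPM against 47.3 to 49.2 CPM in the other 3.

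All 5 tested collagen VI chains, which build the beaded filaments, had positive values in the gastrocnemius, and edgeR called none. Col6a1, Col6a2 and Col6a3, the chains of the common collagen VI molecule, gave 0.34, 0.39 and 0.62 with adjusted p of 0.157, 0.147 and 0.152. Col6a3 had 162, 214, 351 and 200 CPM in libraries labelled knockout, against 175, 163, 137, 127 and 148 CPM in controls, with replicate 2 inside the control range. Col6a5 gave 1.30 (SE 0.37, adjusted p = 0.0703), with 1.52, 2.87, 4.98 and 1.58 CPM against 0.767 to 1.69 CPM in controls. Col6a6 gave 0.63 (SE 0.21, adjusted p = 0.150). DESeq2 called Col6a3 (adjusted p = 0.0121), Col6a5 (0.0083) and Col6a6 (0.0177).

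None of the remaining chains was called in the gastrocnemius by edgeR, and DESeq2 called Col8a1 and Col15a1 higher. Col8a1, a short-chain network collagen of vessels, had 10.5, 13.4, 24.2 and 14 CPM in libraries labelled knockout, against 10.2, 9.88, 9.92, 8.93 and 9.16 CPM in controls, with no overlap (log2 fold change 0.69, SE 0.20, adjusted p = 0.0869). Together with Col19a1, Col13a1 and Col27a1 it was 1 of 4 collagens above all controls, where 3.79% of all genes were. Col13a1, a transmembrane collagen that matures the neuromuscular junction, had 3.89 to 4.03 CPM in libraries labelled knockout and 2.8 to 3.53 CPM in controls (log2 fold change 0.29, SE 0.13, adjusted p = 0.240). Col15a1, a multiplexin at the outer face of the basement membrane, gave 0.53 (SE 0.15, adjusted p = 0.0874). Col25a1, a membrane collagen needed for motor nerve entry into developing mouse muscle, gave 0.19 with a 95% interval of -0.73 to 1.10.

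Replicate 7 was the highest gastrocnemius library labelled knockout in summed collagen level, with 8259 CPM over the 44 genes, where the other 3 had 5439, 5864 and 5898 CPM and controls had 4166 to 6448 CPM. It was also highest in the sum of 8 fibroblast markers, 1720 CPM against 1280 to 1370 CPM in the other 3 and 1220 to 1490 CPM in controls, and in the sum of 7 macrophage markers, 183 CPM against 102 to 111 CPM in the other 3 and 81.8 to 113 CPM in controls. It was the lowest gastrocnemius library in the sum of 8 skeletal muscle fibre genes. That sum was 201000 CPM, against 231000 to 259000 CPM in the other 3 and 221000 to 257000 CPM in controls. Much of the gap was in 1 of the 8, Ttn, the gene of titin, with 69800 CPM. The other 3 had 95100 to 135000 CPM of Ttn and controls 81300 to 132000 CPM. Ckm (12600 CPM) was highest of its group in replicate 7, while Myh4 (75400 CPM), Myh2 (2340 CPM) and Myh1 (3990 CPM) were lowest. Of the fibroblast list 0 of 8 genes were called, with a median of 0.24, and of the macrophage list 0 of 7, with a median of 0.60. Satellite cell markers gave 1 call of 4, Pax7 (0.85, adjusted p = 0.0219), with a summed level of 9.46 to 19.5 CPM in libraries labelled knockout and 7.73 to 9.68 CPM in controls. Schwann cell markers gave 1 call of 6, Ngfr (1.32, adjusted p = 0.0267), while 5 of the 6 had negative values and the median was -0.22. Their sum averaged 240 CPM in libraries labelled knockout and 277 CPM in controls. Mural cell, endothelial and adipocyte lists gave 0 calls. Of all genes, 3.78% were called. At an unadjusted p under 0.05, 2 of 8 fibroblast, 6 of 7 macrophage, 4 of 4 satellite cell and 1 of 6 Schwann cell genes were higher, and 0 lower. At that threshold 3 of 7 endothelial and 1 of 7 mural cell genes were higher. Lower were 1 of 5 adipocyte and 2 of 8 skeletal muscle fibre genes. Of all genes, 9.86% were higher and 8.79% lower there. The part of these cell types in the collagen values was not tested.

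**Figure D3:**
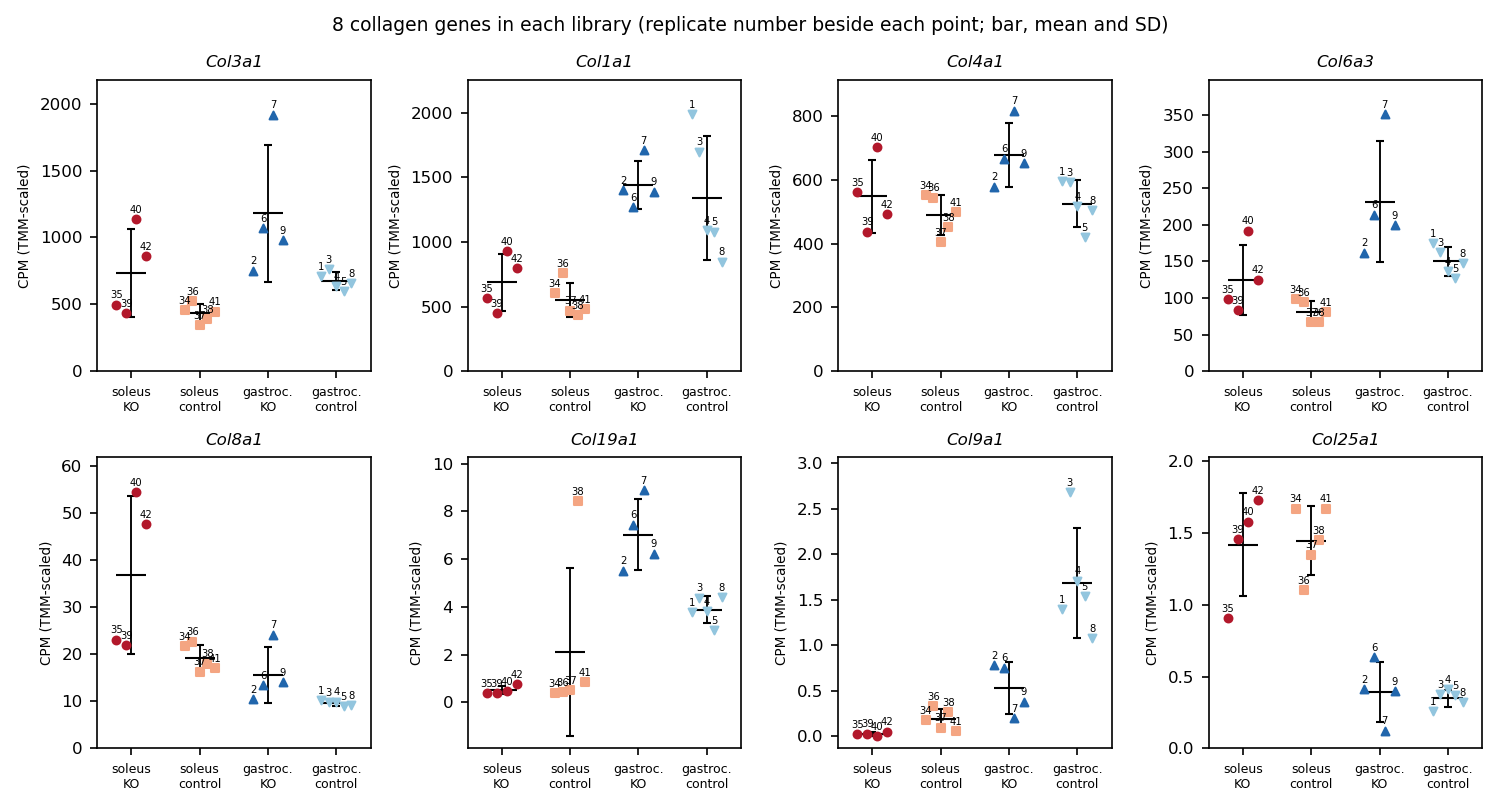
Levels of 8 collagen genes in CPM on TMM-scaled library sizes in every library, with the replicate number beside each point and bars for mean and SD (n = 4 and 5). Col19a1 of soleus control replicate 38 stands at 8.42 CPM beside 0.389 to 0.845 CPM in other soleus libraries, and replicates 7 and 40 lead their groups in Col3a1, Col4a1 and Col6a3.

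In the soleus, libraries labelled knockout were set against controls in the same way, and edgeR called 0 of 42 collagens. Of 18087 genes tested, 0.0553% were called, 0.0387% higher and 0.0166% lower. At an unadjusted p under 0.05, 9 collagens were higher and 1 was lower, where 4.92% and 3.27% of all genes were. DESeq2 and limma voom called 0 as well. Positive values were found for 26 of the 42, beside 49.9% of all genes, with a median of 0.13 beside 0.00. Col6a4 and Col9a1 did not pass the filter, and 0 members separated the groups, as 1.31% of genes did upwards and 1.24% downwards.

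The fibrillar class had a median of 0.28 in the soleus. Col3a1 had 498, 436, 1140 and 863 CPM in soleus libraries labelled knockout (replicates 35, 39, 40 and 42), against 456, 525, 346, 391 and 445 CPM in controls (34, 36, 37, 38 and 41). Replicates 40 and 42 were above every control and the other pair was not. The log2 fold change was 0.78 (SE 0.29, 95% interval 0.12 to 1.43, adjusted p = 0.531). Col5a2 gave 0.60 (SE 0.25) and Col5a1 0.52 (SE 0.23), while Col1a1 gave 0.33 (SE 0.24) and Col1a2 0.27 (SE 0.21), with adjusted p of 0.591 to 0.814. Col11a2, a minor fibril chain known from cartilage, was the 1 member lower at an unadjusted p under 0.05, at -0.36 (SE 0.13, adjusted p = 0.493).

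Outside that class, Col8a1 had the lowest adjusted p of the soleus, 0.464, with 23.1, 21.9, 54.5 and 47.7 CPM in libraries labelled knockout and 21.7, 22.7, 16.3, 18 and 17 CPM in controls (log2 fold change 0.95, SE 0.30). Again replicates 40 and 42 were high and the other pair lay within or near the control range. Col15a1 gave 0.42 (SE 0.15, adjusted p = 0.484) and Col6a3 0.63 (SE 0.25, adjusted p = 0.567). Basement membrane chains had a median of -0.18, with Col4a1 at 0.17 and Col4a5 at -0.28, none called. Col19a1 gave -2.01 (SE 1.13, adjusted p = 0.718), a value made by replicate 38; without that library it was -0.08. The fibroblast sum ran from 642 to 904 CPM in libraries labelled knockout and from 639 to 933 CPM in controls, and replicate 40 was highest of its group in the fibroblast (904 CPM), tendon (420 CPM) and macrophage (105 CPM) sums. Replicate 42 was lowest of its group in the fibroblast sum (642 CPM), with a macrophage sum of 71.0 CPM, inside the control range of 52.8 to 87.6 CPM. The skeletal muscle fibre sum was lowest in these 2 libraries, at 162000 CPM in replicate 40 and 166000 CPM in replicate 42. It was 188000 and 197000 CPM in the other pair labelled knockout and 183000 to 199000 CPM in controls. The largest part was Ttn, at 105000 CPM in replicate 40 and 115000 CPM in replicate 42. The other pair had 129000 and 137000 CPM of Ttn, and controls 128000 to 140000 CPM. In replicate 40 Myh4 (5620 CPM) and Myh1 (7450 CPM) were highest of its group, and Myh7 (5800 CPM) and Myh2 (12600 CPM) lowest. In replicate 42 Myh7 (9150 CPM) and Myh2 (17200 CPM) were highest, and Myh4 (223 CPM), Myh1 (2830 CPM) and Ckm (2760 CPM) lowest. Positive values were found for 7 of 8 fibroblast genes (median 0.26), 6 of 7 macrophage genes (median 0.39) and 2 of 8 tendon genes (median -0.09). None of these genes was called, where 0.0553% of all genes were. At an unadjusted p under 0.05, 1 fibroblast, 3 macrophage and 2 tendon genes were higher and 1 tendon gene was lower. Of all genes, 4.92% were higher and 3.27% lower at that threshold. The part of these cell types was not tested.

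Whether the 2 muscles differed in these effects was tested with an interaction term over all 18 libraries, taken as the soleus effect minus the gastrocnemius effect. It was called for 0 of 43 collagens, beside 0.0703% of 18494 genes, of which 0.0595% were higher and 0.0108% lower. Its value was above 0 for 16 of the 43, where 45% of genes were. Col3a1 differed by -0.04 between the muscles (95% interval -0.89 to 0.81), an interval wide enough to hold a difference as large as either effect. At an unadjusted p under 0.05 there were 0 members higher and 2 lower, Col4a5 (-0.65, SE 0.20, adjusted p = 0.533) and Col19a1 (-2.85, SE 1.11, adjusted p = 0.808), where 2.7% of genes were in either direction. The Col19a1 value was -0.94 without soleus control replicate 38. DESeq2 and limma voom called 0 members too.

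Ratios between chains, taken within a library on levels per length, removed differences in the total amount of collagen. The size of a ratio depends on the listed gene lengths, while its comparison between libraries does not. The Col3a1 to Col1a1 ratio was 0.695 ± 0.0995 in soleus libraries labelled knockout and 0.537 ± 0.0693 in soleus controls, and 0.536 ± 0.165 in gastrocnemius libraries labelled knockout and 0.364 ± 0.106 in gastrocnemius controls (SD, n = 4 and 5). In both muscles the ranges overlapped. Chains that share a molecule kept closer ratios within a muscle. Col5a2 to Col5a1 differed between the muscles, at 0.627 to 0.722 in soleus and 0.474 to 0.556 in gastrocnemius libraries. Col1a1 to Col1a2 was 2.29 ± 0.125 and 2.21 ± 0.0412 in the soleus (labelled knockout and control) and 2.58 ± 0.0302 and 2.54 ± 0.204 in the gastrocnemius. Col6a2 to Col6a1 lay between 0.483 and 0.551 in all 18 libraries, and Col4a2 to Col4a1 between 0.680 and 0.808. Gastrocnemius libraries labelled knockout had Col4a2 to Col4a1 ratios of 0.747, 0.709, 0.680 and 0.732, all below the 0.753 to 0.803 of the controls. In the soleus this ratio overlapped, at 0.707 to 0.772 in libraries labelled knockout and 0.757 to 0.808 in controls. The ratios were not tested.

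**Figure D4:**
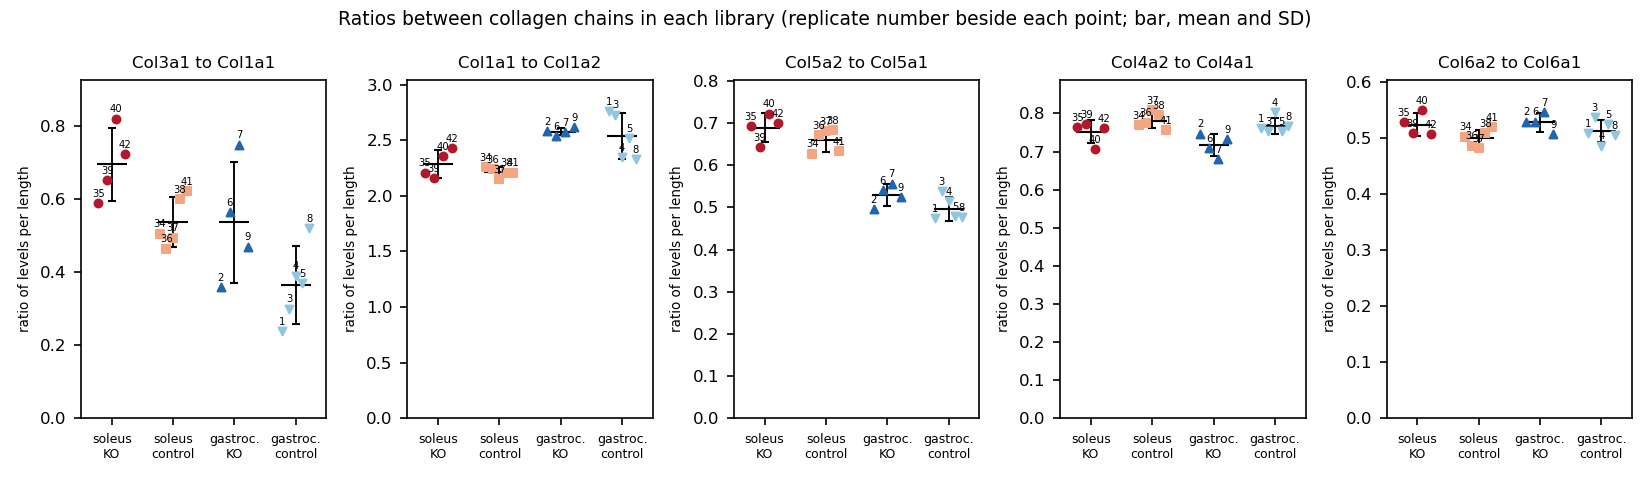
Ratio of the levels per length of 5 pairs of collagen chains in every library, with the replicate number beside each point and bars for mean and SD (n = 4 and 5). Col5a2 to Col5a1 is higher in all soleus libraries than in all gastrocnemius libraries, and Col3a1 to Col1a1 ranges overlap between libraries labelled knockout and controls in both muscles.

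The muscles themselves were compared within each genotype. In mice labelled knockout, 6 of 43 collagens were higher and 16 lower in the soleus than in the gastrocnemius, where 37.8% of 18494 genes were called, 19.2% higher and 18.5% lower. In controls, 8 were higher and 15 lower, where 49.3% of genes were called, 27.4% higher and 21.9% lower. At an unadjusted p under 0.05 the counts were 6 higher and 19 lower in mice labelled knockout (23.9% and 22.1% of genes) and 8 higher and 17 lower in controls (31.1% and 24.3%). Values above 0 were found for 14 collagens in mice labelled knockout (52.7% of genes) and 16 in controls (55.7%). The ranges of the muscles did not overlap for 5 higher and 11 lower collagens in mice labelled knockout (16.5% and 15.9% of genes) and for 6 higher and 13 lower in controls (19.7% and 17%). Both comparisons hold the same kind of contrast in separate libraries, but all 18 libraries share 1 estimate of the spread. The median collagen value was -0.27 in mice labelled knockout and -0.26 in controls, beside 0.03 and 0.08 for all genes. Scaled to library totals alone, the median of all genes moved to 0.27 and 0.35 and the calls became 8 higher and 10 lower in mice labelled knockout and 10 higher and 8 lower in controls. With library totals, 43.7% and 56.8% of all genes were called. Values here are on TMM-scaled libraries, relative to the medians above, and calls that hold only under that scaling are named.

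**Figure D5:**
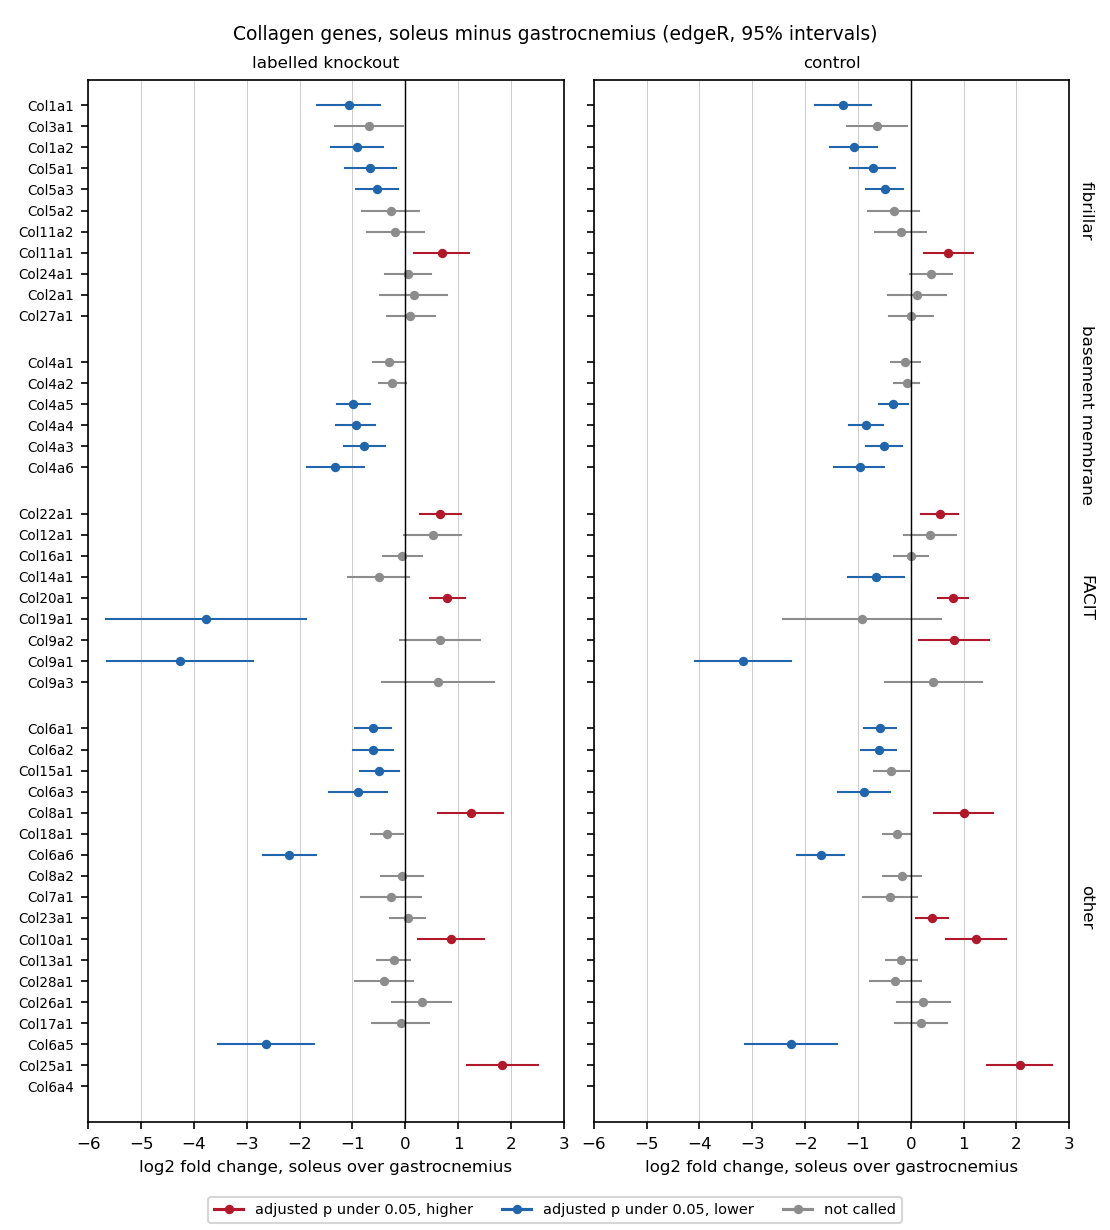
Log2 fold change of each collagen gene, soleus over gastrocnemius, with 95% intervals, in mice labelled knockout (left) and controls (right), by class; Col6a4 was not tested. All 5 tested collagen VI chains and Col4a3 to Col4a6 are called lower in both panels, and Col25a1, Col10a1 and Col8a1 are called higher.

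Collagen I was lower in the soleus. Col1a1 averaged 687 ± 219 CPM in soleus and 1440 ± 187 CPM in gastrocnemius libraries labelled knockout (log2 fold change -1.07, SE 0.28, adjusted p = 0.00659), and 548 ± 132 CPM in soleus controls and 1340 ± 481 CPM in gastrocnemius controls (-1.29, SE 0.25, adjusted p = 0.000504). The ranges of the 2 muscles did not overlap in either genotype. Col1a2 gave -0.91 and -1.07 in mice labelled knockout and controls, and both genes kept the call under library totals. Col5a1 gave -0.66 and -0.72 and Col5a3 -0.54 and -0.49, called in both genotypes on TMM-scaled libraries but not under library totals. Col3a1 gave -0.68 (adjusted p = 0.0856) and -0.64 (adjusted p = 0.0588). Col11a1, a chain of the collagen XI that starts thin fibrils, went the other way: it had 25.7 to 43.4 CPM in soleus and 16.7 to 25.2 CPM in gastrocnemius libraries labelled knockout (0.69, SE 0.25, adjusted p = 0.0375), and 31.4 to 38.1 CPM in soleus and 13.7 to 33.3 CPM in gastrocnemius controls (0.71, SE 0.22, adjusted p = 0.0136). The Col5a2 to Col5a1 ratio was 0.642 to 0.722 in soleus and 0.496 to 0.556 in gastrocnemius libraries labelled knockout, and 0.627 to 0.683 in soleus and 0.474 to 0.538 in gastrocnemius controls.

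The basement membrane class divided by gene pair. Its 6 genes lie as 3 head-to-head pairs, Col4a1 with Col4a2 on chromosome 8, Col4a3 with Col4a4 on chromosome 1 (71 bases apart) and Col4a5 with Col4a6 on the X chromosome (1308 bases apart). Col4a1 and Col4a2 were not called, at -0.31 and -0.24 in mice labelled knockout and -0.10 and -0.08 in controls. Col4a3 to Col4a6 were each called lower in both genotypes. Col4a4 averaged 5.42 ± 1.56 CPM in soleus and 10.4 ± 2.06 CPM in gastrocnemius libraries labelled knockout (-0.94, SE 0.17, adjusted p = 0.000187), and 5.75 ± 0.821 CPM in soleus and 10.3 ± 1.03 CPM in gastrocnemius controls (-0.85, SE 0.15, adjusted p = 0.000106). Col4a6 gave -1.32 and -0.97, and Col4a3 -0.78 and -0.50. Col4a5 gave -0.98 (adjusted p = 2.4e-05) in mice labelled knockout and -0.33 (adjusted p = 0.0467) in controls. The control value of Col4a5 lost its call without any 1 of 8 of the 10 libraries (adjusted p of 0.0571 to 0.124) and under library totals, and so did Col4a3 under library totals.

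FACIT chains held the lowest value in each genotype, that of Col9a1, and also some chains that were higher in the soleus. Col9a1 had 1, 2, 0 and 3 counts in soleus libraries labelled knockout (0 to 0.0486 CPM) and 8 to 34 counts in those of the gastrocnemius (-4.26, SE 0.67, adjusted p = 2.6e-05), and 0.0528 to 0.333 CPM in soleus controls and 1.08 to 2.68 CPM in gastrocnemius controls (-3.18, SE 0.44, adjusted p = 3.3e-06). With so few counts the size of the first value is loosely set. Cartilage and bone markers summed to 11.5 to 31.5 CPM in soleus and 4.9 to 8.76 CPM in gastrocnemius libraries labelled knockout, and to 13.4 to 28.8 CPM in soleus and 5.67 to 7.79 CPM in gastrocnemius controls. These sums were almost wholly Sox9, which averaged 21.1 CPM in soleus and 6.57 CPM in gastrocnemius libraries labelled knockout, and 22.7 CPM in soleus and 6.36 CPM in gastrocnemius controls; the cartilage gene Acan stayed at or under 0.486 CPM in all libraries. Col19a1 had 0.404, 0.389, 0.489 and 0.761 CPM in soleus libraries labelled knockout, against 5.52 to 8.9 CPM in those of the gastrocnemius (-3.77, SE 0.89, adjusted p = 0.00361). In controls its value was -0.92 (adjusted p = 0.297) with soleus replicate 38 and -2.83 (adjusted p = 5.03e-09) without it. With replicate 38 kept, limma voom alone of the alternatives called Col19a1 lower in controls. Col22a1 was higher in the soleus, with 50.7 to 100 CPM in soleus and 31.0 to 49.2 CPM in gastrocnemius libraries labelled knockout (0.66, SE 0.18, adjusted p = 0.00889), and 63.9 to 74.5 CPM in soleus and 38.1 to 54.8 CPM in gastrocnemius controls (0.55, SE 0.16, adjusted p = 0.0108). Col20a1 gave 0.80 in both genotypes, although the gene BX649560.1 overlaps 79 of its bases on the same strand and has 149.6% of its mean count, so reads may be shared. Col14a1 (-0.65) and Col9a2 (0.82) were called in controls alone, where each lost the call on leaving out any of several single libraries; neither difference between genotypes was called, and Col14a1 was not called under library totals.

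All 5 tested beaded filament chains were lower in the soleus in both genotypes. Col6a6 averaged 7.88 ± 2.74 CPM in soleus and 36.0 ± 13.5 CPM in gastrocnemius libraries labelled knockout (-2.20, SE 0.24, adjusted p = 1.52e-06), and 7.15 ± 0.754 CPM in soleus and 23.3 ± 2.16 CPM in gastrocnemius controls (-1.70, SE 0.21, adjusted p = 4.3e-06). Col6a5, which lies 27917 bases from Col6a6 on chromosome 9 with no listed gene between them, gave -2.64 and -2.27 (adjusted p = 5.38e-05 and 0.000121). Col6a4, the gene on the far side of Col6a5, had 4 to 16 counts in soleus and 0 to 7 counts in gastrocnemius libraries labelled knockout, and 2 to 11 and 0 to 4 counts in those of controls, too few for a test. Col6a1, Col6a2 and Col6a3 were lower by smaller amounts, at -0.60, -0.61 and -0.89 in mice labelled knockout and -0.58, -0.61 and -0.88 in controls. Under library totals Col6a1 and Col6a2 were not called in either genotype and Col6a3 was called in controls alone, while Col6a5 and Col6a6 kept the call in both.

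Network and transmembrane chains supplied 3 of the 6 collagens called higher in the soleus of mice labelled knockout and 4 of the 8 in controls. Col25a1 had 0.908, 1.46, 1.58 and 1.73 CPM in soleus libraries labelled knockout, against 0.414, 0.636, 0.123 and 0.399 CPM in those of the gastrocnemius, and 1.67, 1.1, 1.35, 1.45 and 1.67 CPM in soleus controls, against 0.258, 0.375, 0.413, 0.372 and 0.323 CPM in gastrocnemius controls. The muscles did not overlap in either genotype. The log2 fold changes were 1.84 (SE 0.32, adjusted p = 9.84e-05) and 2.06 (SE 0.30, adjusted p = 5.74e-06). Col8a1 gave 1.25 (SE 0.29, adjusted p = 0.00301) and 1.00 (SE 0.26, adjusted p = 0.00527). Col10a1, known from growth plate cartilage, gave 0.87 and 1.23, but 18 of its bases are shared with Nt5dc1 on the opposite strand, whose mean count was 226.77% of its own, and the strand setting of the counting is not given. Col23a1 (0.40) was called in controls alone, and lost the call without replicate 38 (adjusted p = 0.0941). Col13a1 was not called, at -0.22 and -0.18. Col15a1 gave -0.49 (adjusted p = 0.0338) in mice labelled knockout and -0.37 (adjusted p = 0.0577) in controls, and was not called under library totals.

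Calls nearest the threshold in mice labelled knockout changed when single libraries were left out. Without gastrocnemius replicate 7, Col5a1, Col5a3, Col6a2, Col6a3, Col10a1, Col11a1 and Col15a1 were no longer called. Of these, only Col6a2 and Col6a3 kept the call in every other removal. Col5a3 and Col15a1 lost it in 5 of 8 removals, Col11a1 in 4, and Col5a1 and Col10a1 in 3. Without soleus replicate 40, Col3a1 (adjusted p = 0.0164), Col4a1 (0.0126), Col4a2 (0.0281), Col13a1 (0.0418), Col14a1 (0.0301) and Col18a1 became called as lower, and Col11a1 lost its call. In this comparison 5 collagens were called higher and 10 lower when only the 8 libraries of these mice entered the fit. Of all genes, 33.4% were called in either direction there. Col8a1 (adjusted p = 0.0505) and Col22a1 (adjusted p = 0.0512) were not called in that edgeR fit, and Col12a1 was called higher. Col5a1, Col5a3, Col6a2, Col6a3 and Col15a1 were not called lower in it.

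Markers of some other cells differed between the muscles as well, on the same TMM-scaled libraries, and were not counted under library totals. Among all genes, 19.2% were called higher in the soleus and 18.5% lower in mice labelled knockout, and 27.4% and 21.9% in controls. The sum of 8 fibroblast markers was 642 to 904 CPM in soleus and 1280 to 1720 CPM in gastrocnemius libraries labelled knockout, and 639 to 933 CPM in soleus and 1220 to 1490 CPM in gastrocnemius controls, with 5 of 8 genes called lower and 0 higher in both genotypes. Schwann cell markers were called lower for 5 and 4 of 6 genes (73.5 to 155 CPM in soleus and 189 to 320 CPM in gastrocnemius libraries labelled knockout, 67.4 to 239 and 214 to 371 CPM in those of controls), and macrophage markers for 4 and 3 of 7. Endothelial markers went the other way in controls, with 5 of 7 higher and 0 lower, and in mice labelled knockout 4 were higher and 2 lower. Of 8 tendon genes, 1 was higher and 1 lower in mice labelled knockout, and 2 and 2 in controls. The tendon sum was 221 to 420 CPM in soleus and 403 to 438 CPM in gastrocnemius libraries labelled knockout. In controls it was 220 to 368 CPM and 256 to 601 CPM. Of 7 mural cell genes, 2 were higher and 0 lower in both genotypes. Adipocyte and satellite cell lists gave 0 calls. The part of these cell types in the collagen differences was not tested.

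Genes that process, bind or accompany collagens were counted from lists of fixed pathways. In the libraries labelled knockout against controls, 0 of 30 processing and cross-linking genes, 0 of 9 receptors, 0 of 9 fibril-associated proteoglycans and 0 of 11 basement membrane partners were called by edgeR in the gastrocnemius, and 0 of 32, 9, 9 and 11 in the soleus. At an unadjusted p under 0.05 the gastrocnemius counts were 5 higher and 3 lower, 5 and 0, 2 and 0, and 5 and 0, beside 9.86% and 8.79% of all genes. Between muscles, 4 of 32 processing genes were higher in the soleus and 9 lower in mice labelled knockout, and 5 higher and 11 lower in controls, beside the 19.2% and 18.5%, and the 27.4% and 21.9%, of all genes given above. P4ha1, a subunit of the prolyl hydroxylase that stabilises the helix, gave -0.60 (adjusted p = 8.19e-06) and -0.99 (adjusted p = 5.1e-10). Mia3, which helps load procollagen for export from the endoplasmic reticulum, gave -0.34 and -0.60, and Adamts2, which trims procollagen ends, -0.73 and -0.76. P3h2, a prolyl 3-hydroxylase of basement membrane collagens, gave 1.42 (adjusted p = 9.96e-05) and 1.85 (adjusted p = 1.01e-06).

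The collagen receptors divided between the muscles. Counts of calls below stand beside 19.2% of all genes higher and 18.5% lower in mice labelled knockout, and 27.4% and 21.9% in controls. Itga1, the integrin chain that binds collagen IV, gave 0.42 (adjusted p = 0.000734) and 0.63 (adjusted p = 9.66e-07), and Itga10 0.79 and 1.04, while Itga11, a receptor of fibrillar collagen on fibroblasts, gave -0.67 and -0.58. Proteoglycans on fibrils were called lower for 4 of 9 genes and higher for 1 in both genotypes, with Prelp at -0.90 and -0.75, Dcn, the small proteoglycan decorin, at -0.97 and -0.84, and Fmod at -1.36 and -1.05. Partners of collagen IV in the basement membrane were lower for 6 of 11 in mice labelled knockout and 5 in controls and higher for 1 in each, with Agrn, the nerve-derived and muscle-derived organiser of the synapse, at 0.45 and 0.57, and Lamc1, a laminin chain, at -0.35 and -0.41.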

How the data were processed

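Per the labels' protocols, RNA STAT-60 was used on frozen muscle, followed by DNase, a column and KAPA RiboErase against ribosomal RNA. The authors deposited a count, a CPM and an RPKM value per Ensembl gene for every library. The submitters' processing notes name GRCm38, STAR 2.5.1a, featureCounts 1.4.6-p5, bcl2fastq and Subread. Not given in the sources used here were the annotation release, the strand setting and how multi-mapped reads were counted. Rescaling the deposited counts gave the deposited CPM to within 4.9e-10 and the RPKM to within 4.7e-10, so further work used counts alone. GENCODE annotation of GRCm38 gave a symbol for 40254 of 41388 genes and for all 44 members. Coordinates come from the deposited files and promoter sequence from RefSeq.

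The test was the robust quasi-likelihood F-test of edgeR 4.0.16 under R 4.3.3, after TMM scaling and removal of low genes (filterByExpr, at least 10 counts, at least 15 in total). P-values were adjusted over all genes tested (Benjamini-Hochberg), and adjusted p under 0.05 was a call. The 9 libraries of a muscle entered its comparison of libraries labelled knockout with controls, and all 18 entered the comparison of muscles and the interaction. CPM values printed here use TMM-scaled library sizes, and SD is over libraries. SE is the size of the log2 fold change divided by the root of F. Alternatives were RLE, upper-quartile and no scaling factors, no filter, DESeq2 1.42.0, voom of limma 3.58.1, other sets of libraries in the fit, removal of each library, and a block for libraries at the same place in the title numbering of each muscle. The fits were tested on simulated counts with the same spread for all genes and no outlying library, unlike these data. Chi-square between libraries of a group was 19.73 to 141.54 per gene, and none was merged. Since the libraries are not described as carrying molecular identifiers, counts may include PCR copies. Values are given for every collagen called in any comparison, the 2 highest per class per length, 16 chains of collagens I, III to VI, XII to XV, XIX, XXII and XXV, up to 3 called genes per pathway list and comparison, and marker sums; other genes were named after their values were seen. Members and lists were chosen with earlier results of these data known.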

Additional observations from a re-analysis of the deposited data

Results flagged for a closer look

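In groups of 4 or 5 libraries, 10 of 160 groups of values had a highest or lowest library far from the nearest of the others, where chance gives about 1 in 20. In soleus controls replicate 38 was highest in Col19a1, at 8.42 CPM with the next at 0.845 CPM, and in Col23a1, at 6.55 CPM with the next at 4.93 CPM. In gastrocnemius libraries labelled knockout replicate 7 was highest in Col6a2, at 271 CPM with the next at 180 CPM, in the sum of the fibrillar collagens, at 5500 CPM with the next at 3780 CPM, and in the sum of all collagens, at 8260 CPM with the next at 5900 CPM. The same library was lowest in Col22a1, at 31.0 CPM with the next at 47.3 CPM. Replicate 9 of that group was lowest in Col23a1, at 3.02 CPM with the next at 4.59 CPM. In gastrocnemius controls replicate 3 was highest in Col4a5, at 11.3 CPM with the next at 10.2 CPM, and replicate 4 was highest in the Col4a2 to Col4a1 ratio, at 0.803 with the next at 0.767. Soleus replicate 40, labelled knockout, was lowest in that ratio, at 0.707 with the next at 0.762.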

How the results depend on the processing

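The groups share no replicate numbers and the labels do not tie muscles to mice, but soleus title numbers exceed gastrocnemius ones by a constant 33, with the same genotype in 9 of 9 such pairs. Deviations from the group means correlated within pairs at 0.08 to 0.43 across genes, over 0.1 in 8 of 9, and each gastrocnemius library correlated best with its own position among soleus libraries of its genotype (other positions -0.28 to 0.09). This is a hint from the data, not the design. With these pairs as a replicate block, an alternative chosen after seeing the data, 7 collagens were higher and 21 lower in the soleus of mice labelled knockout (40.7% of genes called), 10 and 19 in controls (51.6%), and 0 in the interaction (0.173%). Col3a1 was then called lower in mice labelled knockout (-0.70, adjusted p = 0.000608) and controls (-0.65, adjusted p = 0.00031). In the gastrocnemius, collagens called higher in libraries labelled knockout numbered 1 with edgeR, 9 with DESeq2, 0 with all 18 libraries in the fit and 1 to 9 when single libraries were left out (9 without knockout replicate 2, and 2 without knockout replicate 7 or 9); those called lower numbered 0 to 1. Calls over all genes moved too, from 3.78% with edgeR to 7.53% with DESeq2, 3.57% with all 18 libraries and 1.26% to 6.55% over removals. Between muscles, collagens called lower in the soleus of mice labelled knockout numbered 16, 10 under library totals, 10 with only the 2 groups fitted and 11 to 22 over removals of single libraries. In controls they numbered 15, 8 under library totals, 20 with only the 2 groups fitted, 18 with RLE factors, 18 with DESeq2 and 12 to 15 over removals. Of all genes in mice labelled knockout, 37.8% were called, 43.7% under library totals, 33.4% with 2 groups fitted and 31.7% to 37.5% over removals. In controls 49.3% of all genes were called, 56.8% under library totals and 54.1% with 2 groups fitted. RLE factors gave 49.2% there, DESeq2 51.3% and removals 45.2% to 49.8%. In the soleus comparison of libraries labelled knockout with controls and in the interaction, 0 collagens were called under every alternative run. Signs turned for values near 0. Under library totals Col25a1 of the soleus comparison was 0.02, Col13a1 of the muscle comparison 0.02 in mice labelled knockout and 0.09 in controls, Col4a1 0.16 and Col4a2 0.19 in controls; with limma voom Col22a1 of the soleus comparison was -0.03. Over removals of single libraries, in the gastrocnemius Col12a1 ran from -0.07 to 0.22, Col25a1 from -0.13 to 0.47, Col22a1 from -0.18 to 0.03 and Col1a1 from -0.02 to 0.29, in the soleus Col25a1 ran from -0.13 to 0.15, Col22a1 from -0.22 to 0.14 and Col4a2 from 0 to 0.19, and the Col3a1 interaction ran from -0.34 to 0.33. The causes were not tested. Depth limits Col9a1, Col9a3 and Col6a4 most, with counts down to 0, 2 and 0 in a library.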
